A study of Mus musculus with 9 samples.

Results

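The platelet granule cargo genes Pf4, Ppbp, F5, F13a1, Thbs1, Ecm1, Clu, Srgn, Serpine2 and Nbeal2 were followed through RNA-seq of 2 sorted fractions of mouse bone marrow (BM). They were chosen by name, matched in a count table of 46078 genes, and all 10 were found and passed the filter on low counts. The cells were CD45-Ter119-CD31+ BM cells of normal wild type B6 mice, with no mutation or treatment in either fraction. They were divided by Sca-1, a surface protein of stem cells and part of the vasculature, into Sca-1+ (4 libraries, numbered 7, 13, 15 and 19 from the labels' last digits) and Sca-1- (5 libraries, numbered 8, 10, 14, 16 and 22), named Sca-1high and Sca-1low in the study. The titles of libraries 13, 14 and 22 carry CD452 and that of library 10 the same number alone, those of 8, 15, 16 and 19 carry wt, and that of 7 carries neither. The question put to the genes was how their RNA differed between the fractions.

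Platelets are shed by megakaryocytes, and carry proteins packed into granules that fuse with the surface when the platelet is activated. The alpha granule, the most abundant kind, holds chemokines, coagulation factors, adhesive proteins and protease inhibitors, and the smaller dense granule holds nucleotides, serotonin and calcium. Some cargo is made by the megakaryocyte itself and some, such as fibrinogen, is taken up from plasma. Several cargo genes are also expressed by endothelial cells, macrophages or stromal cells, so the RNA of a cargo gene does not by itself name a cell type.

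Library totals lay between 21581653 and 25959818 counts, so that 3 counts, taken here as the smallest level a library could show, equalled 0.0996 to 0.209 CPM. CPM, the count relative to the library total, was taken after scaling of library sizes by the TMM method, and intervals and floors cover counting error only. Ly6a, which encodes Sca-1, matched the labels with 874 to 1310 CPM in Sca-1+ and 0.24 to 1.49 CPM in Sca-1- libraries. Pecam1, which encodes the CD31 used for sorting, had 1140 to 1760 CPM in Sca-1+ and 334 to 1700 CPM in Sca-1-. The Sca-1- libraries went against the endothelial name of the sort, since the 20 general endothelial markers summed to 1300 to 3030 CPM there and 15300 to 18800 CPM in Sca-1+, and Cdh5, the cadherin of endothelial junctions, lay at 2.44 to 13.1 CPM against 235 to 297 CPM. Esam, 1 of the 20 and also on the list of other alpha granule cargo below, had 303 to 2380 CPM in Sca-1- and 1160 to 1260 CPM in Sca-1+. It was the largest single part of the Sca-1- sum in libraries 8, 10, 14 and 22. The 16 megakaryocyte and platelet markers, a list without any of the cargo genes, summed to 19000 to 95900 CPM in Sca-1- and 117 to 144 CPM in Sca-1+, none of them at 0 counts throughout a fraction. The labels name no mouse for any library, although the titles of libraries 15 and 16 share a number before wt, so p-values measure only the spread between these libraries. In bulk RNA, fewer cells of a type and less RNA per cell cannot be told apart.

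Of the cargo genes, 9 were lower in Sca-1+ than in Sca-1- libraries, and 0 were higher (edgeR's quasi-likelihood test, two-sided, Benjamini-Hochberg adjusted p under 0.05 over 15937 genes). Among all genes tested, 21.4% were lower in Sca-1+, 23.3% higher, and 44.8% differed in either direction. The 10 log2 fold changes, all written as Sca-1+ minus Sca-1- and all below 0, had a median of -5.52 and ran from -10.11 for Ppbp to -1.18 for Serpine2, against a median of 0.07 over all genes tested. For the 9 genes called lower, every Sca-1- library lay above every Sca-1+ library, a separation found in 18.8% of all genes tested in this direction and in 43.6% in either.

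**Figure D1:**
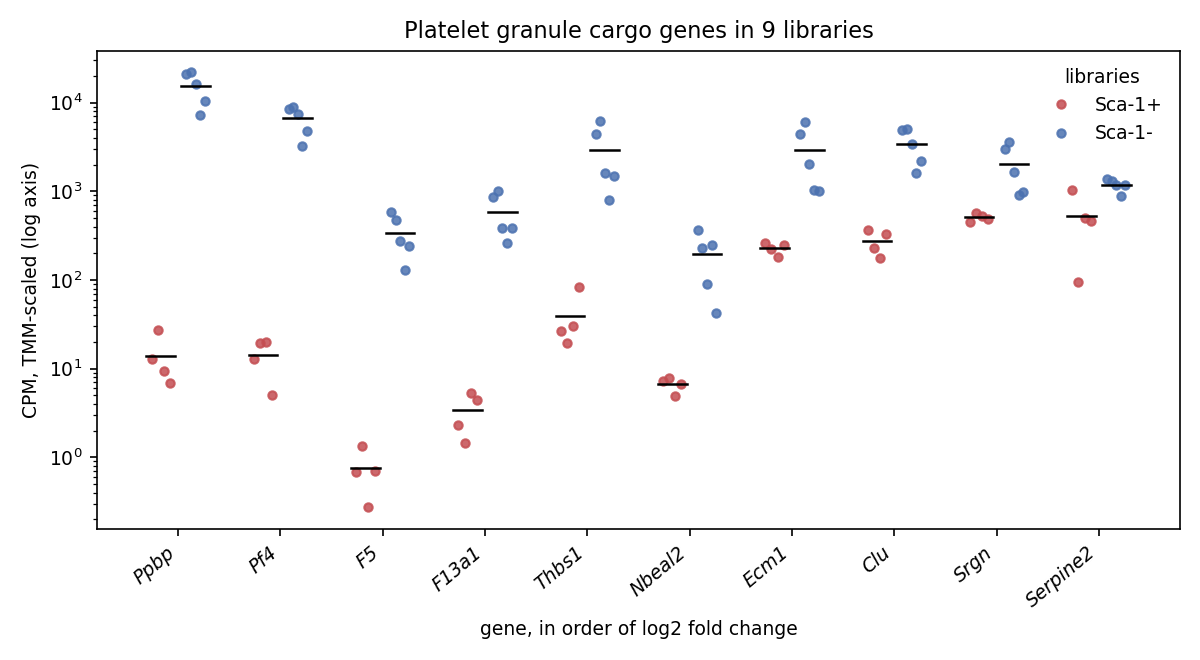
Level of each of the 10 cargo genes in each library, in CPM on a log axis, with 1 point per library and the fractions side by side and a short black line at each mean. For 9 genes the points form 2 separate groups, and Serpine2 shows Sca-1+ library 7 at 1030 CPM, above the lowest Sca-1- library at 877 CPM.

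**Figure D2:**
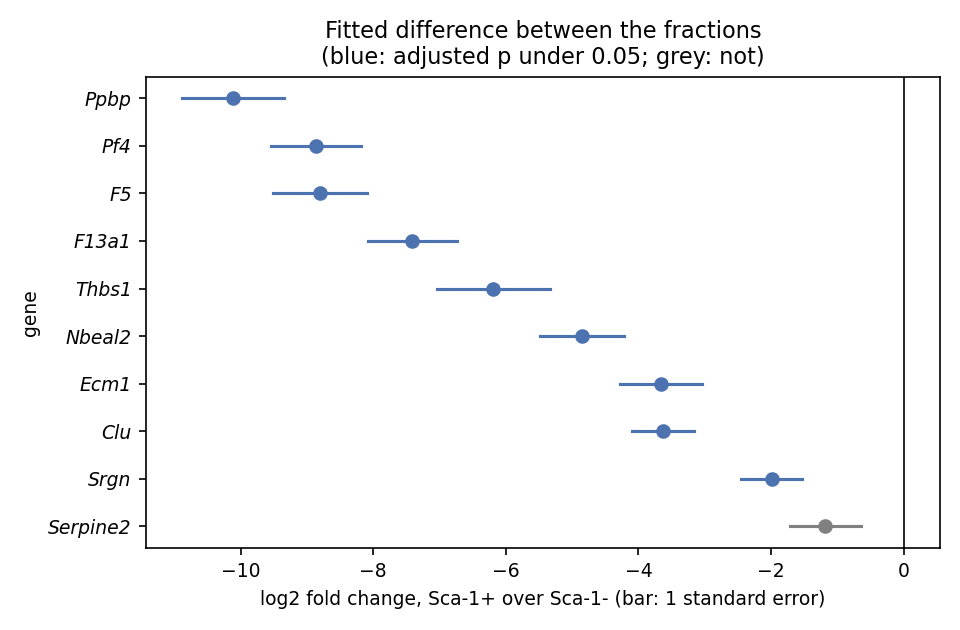
Log2 fold change of each cargo gene, Sca-1+ minus Sca-1-, with a bar of 1 standard error to each side and a line at 0. All 10 values lie below 0, from -10.11 for Ppbp to -1.18 for Serpine2, the only gene not past the threshold.

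The 2 chemokines of the set had the largest differences, followed closely by F5. Pf4 encodes platelet factor 4 (CXCL4), which binds heparin and glycosaminoglycans, and Ppbp encodes the precursor that proteases trim to CXCL7, an attractant of neutrophils. They are neighbours on chromosome 5, both read from the plus strand, with Ppbp (ENSMUSG00000029372) at chr5:90768518-90770063 and Pf4 (ENSMUSG00000029373) at chr5:90772435-90773383 on GRCm38, leaving 2371 bases between them. The 250 bases before each start are shown because these adjacent genes had the highest levels of the set in Sca-1- libraries. The sequences are RefSeq's on GRCm38.p6, plus strand, at chr5:90768268-90768517 for Ppbp and chr5:90772185-90772434 for Pf4. Capitals mark 2 letter strings of the kind bound by Ets factors, CAGGAA and GGAAGT, the second read here on the other strand as ACTTCC.
Ppbp: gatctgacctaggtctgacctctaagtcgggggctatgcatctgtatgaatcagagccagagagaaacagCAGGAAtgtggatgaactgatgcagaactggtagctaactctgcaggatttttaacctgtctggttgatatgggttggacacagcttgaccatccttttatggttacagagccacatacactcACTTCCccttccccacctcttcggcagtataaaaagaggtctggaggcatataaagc
Pf4: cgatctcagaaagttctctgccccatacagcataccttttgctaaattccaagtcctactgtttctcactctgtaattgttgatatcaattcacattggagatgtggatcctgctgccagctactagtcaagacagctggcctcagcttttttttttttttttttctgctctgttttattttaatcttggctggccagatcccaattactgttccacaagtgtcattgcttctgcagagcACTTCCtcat

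In the Ppbp window CAGGAA began 180 bases and ACTTCC 57 bases before the start, and in the Pf4 window ACTTCC began 10 bases before it. Of the 10 genes, 8 had a window in the table, and Srgn and F13a1 had 2 windows each, giving 10 windows, while Thbs1 and Clu had no entry. On either strand, GGAAGT, a string added after these sequences had been read, was present in 5 of the 10 windows (those of F13a1, Nbeal2, Pf4, Ppbp and Srgn) and in 19.7% of 32851 windows of all genes. CAGGAA was likewise present in 5 of the 10 (Ecm1, F13a1, Ppbp, Serpine2 and Srgn) and in 25.7% of all windows. Of 2 further strings of the Ets and Runx kind, CCGGAA (12% of all windows) and ACCACA (14%) were each found in 1 window, of Srgn. The NF-E2 type string TGAGTCA (4.46% of all windows) was found in 1, of Ecm1. AGATAA and TGATAA, the strings of GATA factors searched, were in 0 of the 10 windows and in 9.99% and 7.94% of all windows. Other forms of the GATA string, such as AGATAG, which the Ecm1 window holds, were not searched. A match describes letters and not a bound site and the Ets strings can overlap one another.

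Pf4 had 12.9, 19.3, 19.9 and 4.99 CPM in Sca-1+ libraries 7, 13, 15 and 19, and 8530, 9040, 7500, 3240 and 4850 CPM in Sca-1- libraries 8, 10, 14, 16 and 22. The ranges were far apart, with library 19 lowest in Sca-1+ and library 16 lowest in Sca-1-. Mean levels were 14.3 ± 6.94 CPM (SD, n = 4) in Sca-1+ and 6630 ± 2490 CPM (SD, n = 5) in Sca-1-, for a log2 fold change of -8.86 (SE 0.68, adjusted p = 1.8e-05 by edgeR), or 465-fold lower in Sca-1+.

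Ppbp had 12.8, 27.0, 9.39 and 6.85 CPM in the Sca-1+ libraries and 21300, 21900, 16400, 7270 and 10400 CPM in the Sca-1- libraries, in the same order. Libraries 19 and 16 were again the lowest of their fractions. The means of 14 ± 8.98 CPM (SD, n = 4) and 15500 ± 6510 CPM (SD, n = 5) put the log2 fold change at -10.11 (SE 0.77, adjusted p = 1.8e-05 by edgeR), or 1100-fold lower in Sca-1+. Counts of Ppbp divided by counts of Pf4 in the same library were 2.5, 2.42, 2.19, 2.24 and 2.14 in Sca-1-, and 0.997, 1.4, 0.473 and 1.37 in Sca-1+. The ratio thus varied little among Sca-1- libraries and was lower in each of the 4 Sca-1+ libraries.

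Both chemokines lie in a cluster of CXC chemokine genes on chromosome 5, whose other members split by direction. Cxcl5, which begins the cluster 6893 bases before Ppbp and encodes a neutrophil attractant also stored in platelets, had 3 counts over the 4 Sca-1+ libraries and 13949 counts over the 5 Sca-1- libraries. Per scaled library size, that is a ratio of 4840 (95% counting interval 1660 to 23500). Cxcl3, 12719 bases after Pf4, had 2 and 2250 counts, a ratio of 1170 (95% counting interval 324 to 9680). Cxcl15 had 0 counts in all 9 libraries, which allows up to 0.0996 to 0.209 CPM a library. Cxcl1 and Cxcl2, whose products attract neutrophils, went the other way. Cxcl1 had 251 ± 67.0 CPM (SD, n = 4) in Sca-1+ and 6.11 ± 4.37 CPM (SD, n = 5) in Sca-1- (log2 fold change 5.36, SE 0.59, adjusted p = 9.6e-05). Cxcl2 had 47.6 ± 9.03 and 2.94 ± 1.92 CPM (4.02, SE 0.44, adjusted p = 9.1e-05), a difference that was 0.72 (adjusted p = 0.20) when libraries were scaled to endothelial genes. Of the 20 genes of that scaling 18 were called higher in Sca-1+, and it moved the median over all genes tested to -3.26. Along the cluster, the fraction with the higher level therefore changed between Cxcl3 and Cxcl1.

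**Figure D3:**
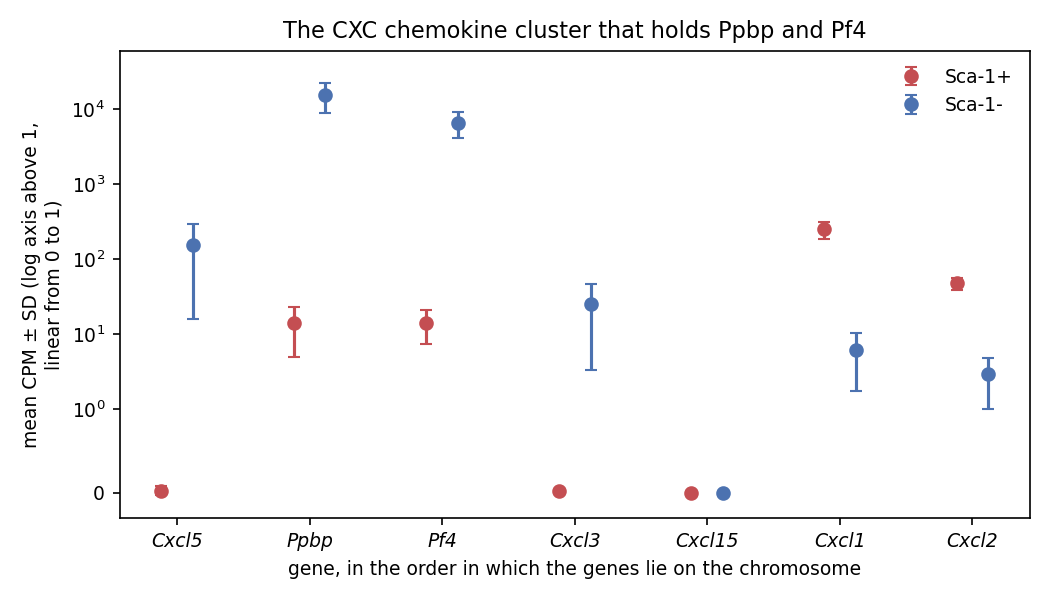
Mean CPM of the CXC chemokine genes in each fraction with bars of 1 SD, in their order along chromosome 5, on an axis that is linear from 0 to 1 CPM and logarithmic above. Cxcl5, Ppbp, Pf4 and Cxcl3 are higher in the Sca-1- libraries, and Cxcl1 and Cxcl2 are higher in the Sca-1+ libraries.

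The cargo for coagulation comprised F5 and F13a1. F5 (ENSMUSG00000026579, chr1:164151838-164220277, plus strand) encodes coagulation factor V, the cofactor of factor Xa in making thrombin. It had 0.682, 1.36, 0.276 and 0.697 CPM in Sca-1+ libraries 7, 13, 15 and 19, all above their floors, and 584, 478, 272, 130 and 243 CPM in Sca-1- libraries 8, 10, 14, 16 and 22. The fractions did not overlap. Sca-1+ averaged 0.754 ± 0.45 CPM (SD, n = 4) and Sca-1- 341 ± 185 CPM (SD, n = 5), for a log2 fold change of -8.81 (SE 0.71, adjusted p = 2.3e-05), or 449-fold lower in Sca-1+. Selp, whose product P-selectin sits in the alpha granule membrane and in the storage bodies of endothelium, ends 1811 bases before F5. It had 420 ± 89.3 CPM (SD, n = 4) and 265 ± 112 CPM (SD, n = 5) and was not called (0.66, adjusted p = 0.14).

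F13a1 (ENSMUSG00000039109, chr13:36867178-37050244, minus strand) encodes the A subunit of factor XIII, the transglutaminase that crosslinks fibrin, which megakaryocytes and macrophages are known to make. Its Sca-1+ libraries had 2.32, 1.46, 5.35 and 4.45 CPM and its Sca-1- libraries 852, 999.1, 387, 261 and 389 CPM. Libraries 8 and 10 stood above the other Sca-1- libraries, and the fractions did not overlap. The fractions differed by -7.41 on the log2 scale (SE 0.67, adjusted p = 3.7e-05), between means of 3.4 ± 1.81 CPM (SD, n = 4) and 577 ± 326 CPM (SD, n = 5), or 170-fold lower in Sca-1+.

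Among relatives of these factors, the direction was not shared. F8, factor VIII, the structural relative of factor V, had 115 ± 39.6 CPM (SD, n = 4) in Sca-1+ and 1.48 ± 1.91 CPM (SD, n = 5) in Sca-1-, a log2 fold change of 6.23 (SE 1.05, adjusted p = 0.00094) that became 7.41 without Sca-1- library 16. Tgm2, a tissue transglutaminase related to factor XIII, had 263 ± 41.7 and 24.2 ± 10 CPM (3.44, SE 0.32, adjusted p = 3.9e-05), and 0.04 when libraries were scaled to endothelial genes.

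Thbs1, Ecm1 and Clu encode proteins secreted into matrix or plasma. Thbs1 (ENSMUSG00000040152, chr2:118111876-118127133, plus strand) encodes thrombospondin 1, an adhesive glycoprotein that bridges platelets and activates latent TGF-β. Sca-1+ libraries 7, 13, 15 and 19 had 26.6, 19.5, 30.4 and 82.6 CPM, and Sca-1- libraries 8, 10, 14, 16 and 22 had 4390, 6290, 1600, 791 and 1490 CPM. Library 19 stood above the other Sca-1+ libraries, and libraries 8 and 10 above the other Sca-1- libraries, without overlap of the fractions. Thbs1 differed by a log2 fold change of -6.19 (SE 0.85, adjusted p = 0.00029), or 73.2-fold, and by -6.83 without library 19, from means of 39.8 ± 28.9 CPM (SD, n = 4) and 2910 ± 2340 CPM (SD, n = 5).

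Ecm1 (ENSMUSG00000028108, chr3:95734147-95739569, minus strand) encodes extracellular matrix protein 1. Its levels were 261, 225, 184 and 249 CPM in Sca-1+ and 4390, 6060, 2050, 1030 and 1020 CPM in Sca-1-, so that the 4 Sca-1+ libraries lay close together and the Sca-1- libraries spread widely. Ecm1 was lower in Sca-1+ by a log2 fold change of -3.66 (SE 0.62, adjusted p = 0.00093), with means of 230 ± 33.9 CPM (SD, n = 4) and 2910 ± 2230 CPM (SD, n = 5), or 12.7-fold.

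Clu (ENSMUSG00000022037, chr14:65968483-65981547, plus strand) encodes clusterin, an extracellular chaperone. It had 371, 227, 175 and 329 CPM in Sca-1+ and 4900, 5030, 3400, 1590 and 2190 CPM in Sca-1-, again without overlap. Clu had means of 276 ± 90.4 CPM (SD, n = 4) and 3420 ± 1550 CPM (SD, n = 5), which put Sca-1+ lower by 12.4-fold (log2 fold change -3.63, SE 0.47, adjusted p = 0.00021).

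Of the relatives of Thbs1, 3 had a mean of at least 1 RPKM in a fraction, and in each of them the fractions overlapped. Thbs2 had a log2 fold change of -0.77 (adjusted p = 0.48), which was 0.05 without Sca-1- library 8. Thbs4 had -2.71 (adjusted p = 0.068), and -1.43 without library 8. Comp, cartilage oligomeric matrix protein, had 9.17 ± 7.95 CPM (SD, n = 4) in Sca-1+ and 65.1 ± 96.0 CPM (SD, n = 5) in Sca-1- (-2.83, adjusted p = 0.05, just past the threshold), and -1.41 without library 8, and its call held in 10 of 21 alternatives. Library 8 also had the highest sum of marrow stromal and osteoblast markers, 42700 CPM against 3360 to 19500 CPM in the other Sca-1- libraries and 675 to 2690 CPM in Sca-1+, with Col1a1 the highest of the 12 markers there. Of these 12 markers, 3 were called lower in Sca-1+ and 4 higher, and their part in the levels of Thbs1 and its relatives was not tested. Ecm2, another gene of the extracellular matrix, had a log2 fold change of 2.54 (adjusted p = 0.002), which turned to -0.81 (adjusted p = 0.23) when libraries were scaled to endothelial genes.

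Srgn (ENSMUSG00000020077, chr10:62493833-62527451, minus strand) encodes serglycin, the proteoglycan core on whose chains blood cells and endothelium store basic cargo such as PF4. It had 448, 570, 529 and 492 CPM in Sca-1+ libraries 7, 13, 15 and 19, and 2980, 3630, 1640, 919 and 989 CPM in Sca-1- libraries 8, 10, 14, 16 and 22. Srgn was abundant in both fractions, and its lowest Sca-1- library lay above its highest Sca-1+ library. Means of 510 ± 52.1 CPM (SD, n = 4) and 2030 ± 1220 CPM (SD, n = 5) gave a log2 fold change of -1.99 (SE 0.46, adjusted p = 0.0052), or 3.99-fold lower in Sca-1+. Srgn was the only one of the 9 called genes to lose its call in 1 of 21 alternatives, at -1.68 (adjusted p = 0.055) in 6 libraries with consecutive label numbers taken as blocks.

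Serpine2 (ENSMUSG00000026249, chr1:79794197-79861180, minus strand) encodes protease nexin 1, a heparin-dependent inhibitor of thrombin and plasminogen activators. Sca-1+ libraries had 1030, 94.2, 495 and 467 CPM and Sca-1- libraries 1370, 1320, 1180, 877 and 1190 CPM. The fractions overlapped, since Sca-1+ library 7 lay above Sca-1- library 16, and the Sca-1+ libraries differed from each other more than the Sca-1- libraries did. The log2 fold change of -1.18 (SE 0.53, adjusted p = 0.093), from means of 521 ± 385 CPM (SD, n = 4) and 1180 ± 192 CPM (SD, n = 5), did not pass the threshold. It did so in DESeq2 (-1.30, adjusted p = 0.031), in limma voom (-1.60, adjusted p = 0.034) and without library 7 (-1.75, adjusted p = 0.027). It also did so on the endothelial scaling (-4.51, adjusted p = 2e-05). That scaling moved the median over all genes tested to -3.26, so this call does not single out Serpine2.

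Nbeal2 (ENSMUSG00000056724, chr9:110624789-110654161, minus strand) encodes a BEACH-domain protein needed to keep cargo in alpha granules, whose loss causes gray platelet syndrome. It had 7.33, 7.90, 4.97 and 6.70 CPM in Sca-1+ and 365, 230, 89.0, 246 and 42.8 CPM in Sca-1-. It was lowest in Sca-1- library 22 and second highest in library 16, whereas 8 of the other 9 genes were lowest in library 16. Nbeal2 was 28.9-fold lower in Sca-1+ (6.72 ± 1.27 CPM, SD, n = 4) than in Sca-1- (195 ± 129 CPM, SD, n = 5), or by -4.85 in log2 (SE 0.63, adjusted p = 0.00022). Among its BEACH-domain relatives, Lyst, whose loss causes Chediak-Higashi syndrome, was lower in Sca-1+ (-4.47, SE 0.65, adjusted p = 0.00042). Wdfy3 (0.98, adjusted p = 0.021) and Nsmaf (0.67, adjusted p = 0.13) became -2.26 and -2.77 on the endothelial scaling, and Wdfy3 was past the threshold in 16 of 21 alternatives in either direction.

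Strand was not given for the counting, and exons of F5, F13a1 and Thbs1 share 262, 74 and 208 bases with noncoding genes on the opposite strand, so reads there cannot be assigned to either gene. Scaling changed the size of the differences and not their direction in any of the 10 genes. With library sizes alone, the log2 fold change was -8.34 for Pf4, -5.55 for Thbs1, -3.0 for Ecm1 and -1.39 for Srgn, and over all genes tested the median was then 0.43. With libraries scaled to endothelial genes, that median was -3.26, and the 10 genes ran from -13.28 for Ppbp to -4.51 for Serpine2.

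The 10 genes together took 1.90% to 3.41% of all counts in Sca-1- libraries and 0.145% to 0.264% in Sca-1+ libraries. Pf4 and Ppbp made up 56.3% to 69.3% of these counts in Sca-1- and 0.721% to 3.88% in Sca-1+. Ppbp took the most of them in all 5 Sca-1- libraries (39.8% to 47.6%). In Sca-1+ the leading gene was Serpine2 in library 7, with 47.4%, and Srgn in the other 3, with 30.0% to 47.8%. As an unscaled share of counts, Pf4 reached 0.572%, 0.524%, 0.741%, 0.376% and 0.552% in Sca-1- libraries 8, 10, 14, 16 and 22, so that library 14, and not 10, was then the highest.

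Levels were compared between genes as RPKM, CPM divided by kilobases of exon. In Sca-1- libraries Ppbp (14300 ± 6010 RPKM, SD, n = 5) and Pf4 (9200 ± 3450) ranked 3 and 4 among all genes. Below them came Ecm1 (1150 ± 885), Clu (996 ± 451), Srgn (926 ± 555), Thbs1 (480 ± 385), Serpine2 (143 ± 23.1), F13a1 (85.7 ± 48.4), F5 (46.0 ± 24.9) and Nbeal2 (20.4 ± 13.6). The step from Pf4 to Ecm1 was the only one between neighbours in this order whose ranges over libraries did not overlap, although Ppbp was above Pf4 in 5 of 5 libraries. Ecm1 was above Clu in only 2 of 5 libraries.

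In Sca-1+ libraries the order began with Srgn (232 ± 23.7 RPKM, SD, n = 4), Ecm1 (91.2 ± 13.4), Clu (80.2 ± 26.3) and Serpine2 (62.9 ± 46.4). Pf4 (19.8 ± 9.63), Ppbp (12.9 ± 8.29) and Thbs1 (6.55 ± 4.76) followed, and Nbeal2 (0.704 ± 0.133), F13a1 (0.504 ± 0.269) and F5 (0.102 ± 0.0605) came last. The steps from Srgn to Ecm1, from Thbs1 to Nbeal2 and from F13a1 to F5 did not overlap, and the other neighbours did. The chemokines thus led the order in Sca-1- and stood in its middle in Sca-1+.

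To set each cargo gene beside a megakaryocyte transcript in the same library, its counts were divided by those of Itga2b, the platelet integrin αIIb, and multiplied by 1000. Itga2b had 255 to 342 counts in Sca-1+ libraries and 162242 to 333444 counts in Sca-1-. With this denominator the 10 genes fell into 2 sets, described here without a test. For Ppbp, Pf4 and F5 the fractions overlapped. Ppbp had a median of 970 (694 to 2570) per 1000 Itga2b counts in Sca-1+ and 1310 (941 to 2010) in Sca-1-. Pf4 had 1440 (506 to 1840) and 585 (388 to 916), and F5 had 64.5 (24.7 to 130) and 31.9 (20.5 to 36.8).

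For the other 7 genes every Sca-1+ library lay above every Sca-1- library on this scale. The ratio of the medians, Sca-1+ over Sca-1-, was 6.91 for F13a1, 11.1 for Thbs1, 60 for Nbeal2, 92.1 for Ecm1, 93.1 for Clu, 298 for Srgn and 318 for Serpine2. The Srgn medians, for example, were 48600 and 163 per 1000 Itga2b counts. F13a1 and Thbs1 lay nearest to the chemokines and F5, while Srgn and Serpine2 lay farthest from them. This order largely followed each log2 fold change beside the -10.16 of Itga2b, so it adds little to those values. The sets depended on the denominator. Per 1000 counts of the 16 megakaryocyte and platelet markers, Ppbp separated, with at most 191 in Sca-1+ and at least 228 in Sca-1-. F13a1 then overlapped, with 10.4 in Sca-1+ library 13 and 13.7 in Sca-1- library 16. The other genes kept their set.

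**Figure D4:**
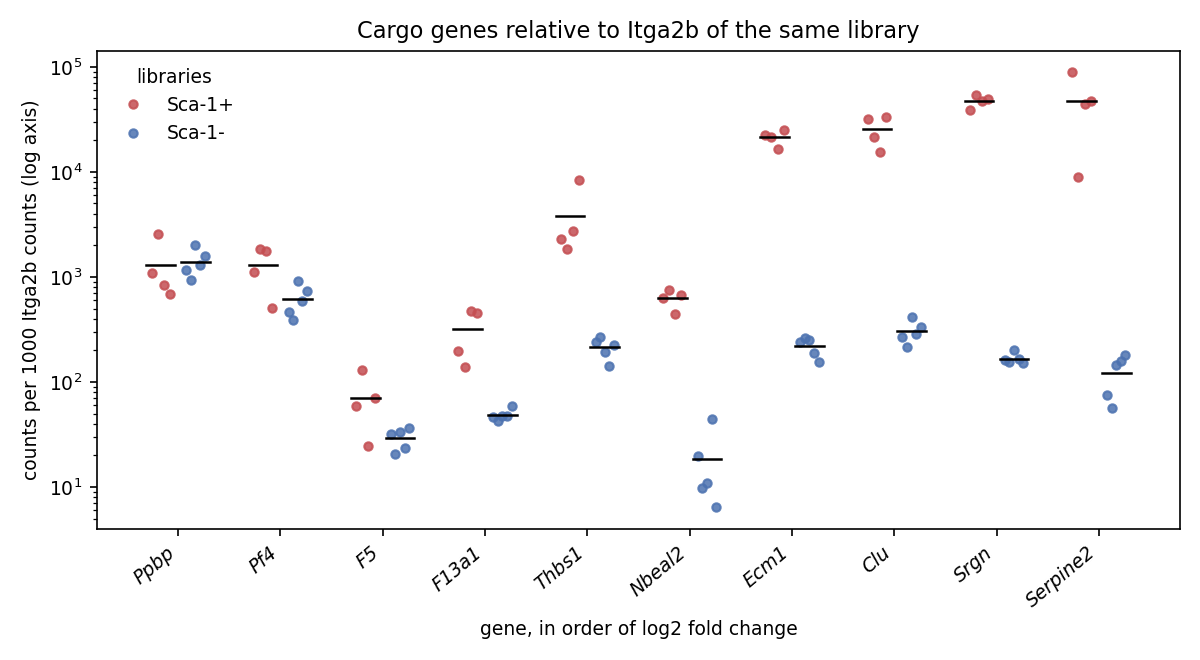
Counts of each cargo gene per 1000 counts of Itga2b in the same library, on a log axis, with 1 point per library and a short black line at each mean. The fractions overlap for Ppbp, Pf4 and F5, and the Sca-1+ libraries lie above the Sca-1- libraries for the other 7 genes, most for Serpine2 and Srgn.

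Markers of other blood cells differed unevenly between the fractions. The 12 monocyte and macrophage markers, cells known to express F13a1 and Thbs1, summed to 869 to 2510 CPM in Sca-1- and 250 to 384 CPM in Sca-1+, with Lyz2 lower in Sca-1+, Cd14 and Irf8 higher, and 6 of 9 tested not called. Lyz2 made up most of the Sca-1- sums, and without it the markers summed to 33.4 to 97.1 CPM in Sca-1- and 242 to 338 CPM in Sca-1+. The 10 mast cell and basophil markers, cells known to express Srgn, summed to 95.6 to 13100 CPM in Sca-1-, highest in library 16, and to 6.49 to 83.4 CPM in Sca-1+, with 7 of 7 tested lower in Sca-1+ and Mcpt4 and Tpsb2 at 0 counts in all libraries. In library 16, where that sum was highest, Pf4, Ppbp, Thbs1, F13a1, F5, Clu, Srgn and Serpine2 were at their lowest CPM in Sca-1-, whereas Nbeal2 had 246 CPM, its second highest. As an unscaled share of counts, Serpine2 was lowest in library 10 (0.0763%, against 0.102% in library 16). Nbeal2 was then highest in library 16 (0.0286%). The 12 neutrophil markers reached 786 CPM in Sca-1+ library 19 against 9.46 to 59.4 CPM in the other Sca-1+ libraries and 185 to 796 CPM in Sca-1-, with 3 of 12 called lower and the rest not called. Erythroid markers summed to 1200 to 2750 CPM in Sca-1- and 131 to 274 CPM in Sca-1+ (8 of 11 lower). The part of these cells in the levels of the cargo genes was not tested.

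The genes whose profile over the 9 libraries came nearest to that of Pf4 were ranked by the root mean square distance between log2 CPM values, each gene centred on its own mean, among 9866 genes. Among the nearest were Gm15856 (0.285), the platelet receptor gene Clec1b (0.480), Nrgn (0.486) and the signalling adaptor Lat (0.515), with log2 fold changes of -9.30, -9.66, -8.91 and -9.58. Nrgn, which encodes the calmodulin-binding protein neurogranin, had 7430 ± 3930 CPM (SD, n = 5) in Sca-1- and 15.4 ± 3.64 CPM (SD, n = 4) in Sca-1+. Gm15856 had 0.0682, 0.341, 0.242 and 0.0 CPM in Sca-1+ libraries 7, 13, 15 and 19. Libraries 7 and 19 lay under their floors of 0.102 and 0.116 CPM, so its distance and fold change rest on few counts. Gm15856 lies antisense to Tuba8, and exons of Clec1b overlap those of Clec9a, so the reads of both are uncertain. Ppbp ranked 23 (0.746) and F5 ranked 26, followed by F13a1 at 99, Thbs1 at 228, Nbeal2 at 399, Clu at 559, Ecm1 at 642, Srgn at 1329 and Serpine2 at 1723. Centring over the 9 libraries keeps the difference between the fractions in the distance. From F13a1 on, the order largely followed how far each log2 fold change lay from the -8.86 of Pf4, so it adds little to those values.

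Genes that build and fill the granules were described by lists written from general knowledge, with counts set against the 21.4% of all genes lower and 23.3% higher in Sca-1+. Of 35 genes of granule biogenesis, 14 were lower in Sca-1+, 3 higher (Vps11, Nbeal1 and Hps5) and 18 not called, with a median log2 fold change of -0.02. The 14 included Nbeal2, the transcription factor genes Gata1 (-8.08, SE 0.71, adjusted p = 3.4e-05) and Gfi1b (-7.0, SE 0.53, adjusted p = 1.8e-05), and Slc35d3, a dense granule gene with 4 counts over the Sca-1+ libraries and 8368 over the Sca-1- libraries (ratio 2180, 95% counting interval 850 to 7990). Vps33b, which directs cargo to the alpha granule, was lower by a smaller amount (-1.30, SE 0.20, adjusted p = 0.00057), and its binding partner Vipas39 had -0.02 (adjusted p = 0.95). Without Sca-1- library 8, or without library 14, 1 biogenesis gene rather than 3 was called higher.

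Of 18 tested genes of the granule membrane and dense granule uptake, 11 were lower in Sca-1+ and 1, Cd36, was higher, with a median of -3.56. The 3 largest differences were in Treml1, a receptor of the alpha granule membrane (-10.89, SE 0.91, adjusted p = 2.6e-05), Gp9, a subunit of the von Willebrand factor receptor (-10.29, SE 0.75, adjusted p = 1.6e-05), and Slc6a4, the serotonin transporter (-10.19, SE 1.19, adjusted p = 0.00012). Without Sca-1+ library 13 the value of Gp9 was -10.91, and without library 19 that of Slc6a4 was -11.27. Cd36, a receptor of thrombospondin 1 that capillary endothelium also carries, had 2370 ± 1070 CPM (SD, n = 4) in Sca-1+ and 14.9 ± 16.3 CPM (SD, n = 5) in Sca-1- (7.31, SE 0.90, adjusted p = 0.00017), and 8.17 without Sca-1- library 16.

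The release machinery, which docks and fuses granules, had 17 of 31 tested genes lower in Sca-1+, 4 higher and 10 not called, with a median of -0.93. Unc13d (-9.92, SE 0.82, adjusted p = 2.5e-05), the priming factor Munc13-4, Rab27b (-9.81, SE 1.13, adjusted p = 0.00012), a small GTPase of secretory granules, and Stxbp2 (-7.30, SE 0.54, adjusted p = 1.7e-05), the syntaxin partner Munc18-2, differed most by the naming rule. Vamp8, the main fusion protein of platelet granules, had a smaller difference (-0.59, adjusted p = 0.043).

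The other alpha granule cargo went in both directions. Of 34 tested genes, 11 were lower in Sca-1+, 13 higher and 10 not called, with a median of 0.04. The genes lower in Sca-1+ included the adhesive proteins Vwf (-3.36, SE 0.55, adjusted p = 0.00084) and Mmrn1 (-3.84, SE 0.50, adjusted p = 0.00022), the cytokine Tgfb1 (-2.54, SE 0.37, adjusted p = 0.00043), Hpse, which encodes heparanase (-10.66, SE 1.07, adjusted p = 5.7e-05), and the chemokine Ccl3 (-6.69, SE 1.86, adjusted p = 0.014). The 13 genes called higher in Sca-1+ included Pdgfb, Vegfa, Igf1, Timp3, Gas6, F8, Cxcl12, Cxcl1, App, Aplp2, Vtn and Tfpi. Hpse had -12.14 without Sca-1+ library 13, and Ccl3 had -11.33 without Sca-1+ library 19 and -5.53 without Sca-1- library 16. With libraries scaled to endothelial genes, 25 of these cargo genes were lower and 3 higher. Vwf and Mmrn1 were chosen for naming after their values were seen, as were Tgfb1, Vamp8, Vps33b, Vipas39 and Selp.

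Genes that build the glycosaminoglycan chains carried by serglycin went in both directions, with 4 of 27 lower in Sca-1+, 9 higher, 14 not called and a median of 0.11. Chst12, a chondroitin 4-sulfotransferase, was lower (-4.06, SE 0.52, adjusted p = 0.0002). Chst7, a chondroitin 6-sulfotransferase (5.48, SE 1.19, adjusted p = 0.004), and Ndst1, which sulfates heparan sulfate (3.65, SE 1.06, adjusted p = 0.017), were higher. Chst7 had 6.80 without Sca-1- library 16, and 1.87 (adjusted p = 0.18) when libraries were scaled to endothelial genes. Ndst1 had 0.21 (adjusted p = 0.87) on that scaling, and was not called in the 6 libraries with consecutive numbers (3.95, adjusted p = 0.10, with the block, and 3.38, adjusted p = 0.071, without it). The count of lower genes was 2 without Sca-1+ library 7, 15 or 19, and that of higher genes was 5 without Sca-1+ library 7 or 15 or Sca-1- library 22.

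Among receptors and partners of the cargo, 11 of 25 tested genes were lower in Sca-1+, 6 higher and 8 not called, with a median of -0.17. F2rl2, the thrombin receptor PAR3 of mouse platelets (-10.43, SE 1.30, adjusted p = 0.00018), and Itgb3, the partner chain of αIIb (-8.37, SE 0.77, adjusted p = 3.8e-05), were lower, and F2rl2 had -12.07 without Sca-1+ library 13. Mcfd2, part of the receptor that carries factors V and VIII out of the endoplasmic reticulum, was higher in Sca-1+ (1.64, SE 0.19, adjusted p = 0.00013), and its partner Lman1 had 0.35 (adjusted p = 0.20). Mcfd2 and Lman1 were likewise named after their values were seen.

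**Figure D5:**
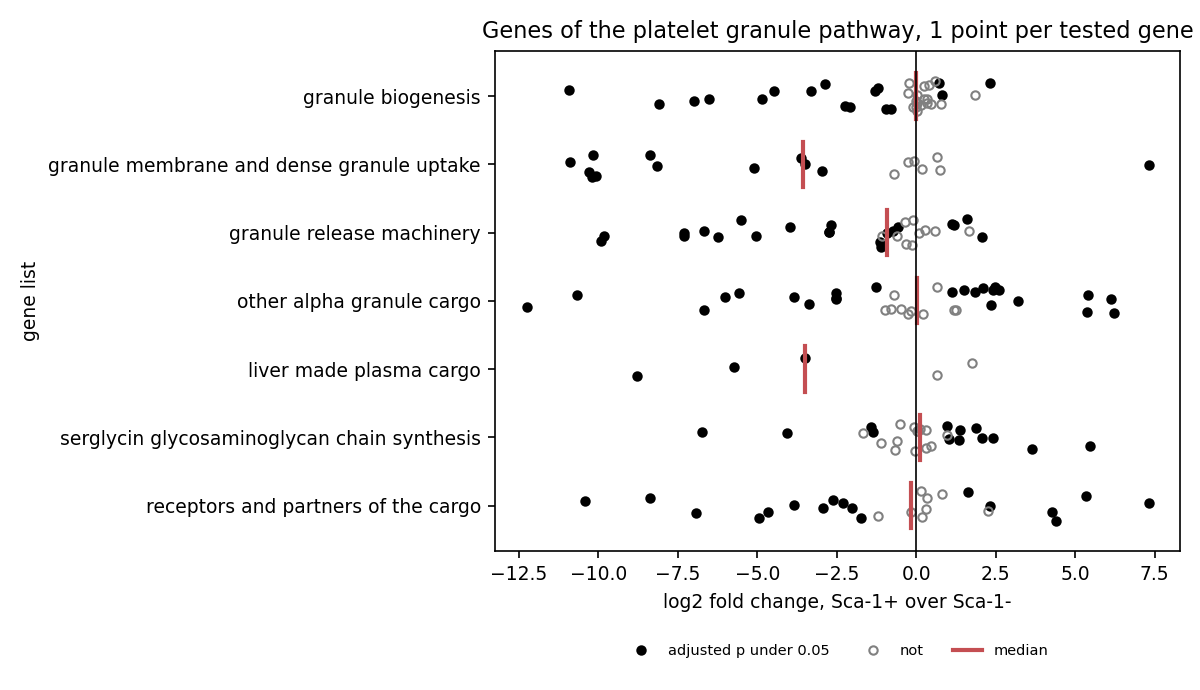
Log2 fold change, Sca-1+ minus Sca-1-, of each tested gene in each granule list, with 1 point per gene (black past an adjusted p of 0.05 by edgeR, open grey otherwise) and a red line at the list's median. Other alpha granule cargo has 11 black points below 0 and 13 above, whereas the release machinery has 17 below and 4 above.

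The wider set of relatives, 31 matched genes of the same families as the 10, had 23 tested, of which 4 were lower in Sca-1+ (Cxcl3, Cxcl5, Lyst and, at the threshold, Comp) and 10 higher, with a median log2 fold change of 0.67. Cxcl10 (6.57, SE 0.74, adjusted p = 0.0001) and Cxcl9 (6.05, SE 1.13, adjusted p = 0.0017), chemokines induced by interferon, were higher in Sca-1+. Cxcl9 had 6.90 without Sca-1- library 16, and 2.54 (adjusted p = 0.076) when libraries were scaled to endothelial genes. Exons of Cxcl10 overlap the opposite-strand gene Art3. Prg2, the eosinophil granule protein that shares a proteoglycan name with serglycin, had -1.88 (adjusted p = 0.38), and 0.36 without Sca-1- library 8. Prg4, lubricin, had 2.15 (adjusted p = 0.061), which turned to -1.32 when libraries were scaled to endothelial genes and was 2.89 (adjusted p = 0.018) without Sca-1- library 16, and it was past the threshold in 4 of 21 alternatives.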

How the data were processed

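The authors deposited raw counts, whole reads assigned to genes, as 1 table of all 9 libraries, and the submitters' processing notes name STAR, featureCounts and mm10, while versions, annotation release and use of strand are not given in the sources used here. PCR copies are part of the counts, as molecular identifiers were not used. Counts were tested in R 4.3.3 with edgeR 4.0.16 after filterByExpr (minimum count 10, minimum total 15), TMM scaling and a quasi-likelihood fit of the 2 fractions, with Benjamini-Hochberg adjustment over 15937 genes and a threshold of 0.05. The steps were tested on simulated data in which few genes differed. Such data do not test the scaling where 44.8% of genes are called. Log2 CPM used a prior count of 2. Groups came from the labels. Running numbers that open the labels do not overlap between the fractions, so anything that follows them cannot be told apart from Sca-1. No libraries were copies of one another.

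RPKM used exon lengths of GENCODE M21 on GRCm38, in which 45229 of 46078 identifiers were found. Promoter windows came from RefSeq. Alternatives used DESeq2 1.42.0, limma 3.58.1 voom, other scalings and filters, blocks and left-out libraries. The members and lists were chosen with earlier results of these data known. Named genes were the 10, in each pathway list the 3 with the largest absolute log2 fold change among called genes that did not overlap and averaged a log2 CPM of 3 or more, tested relatives with a mean of at least 1 RPKM, and the 5 nearest to Pf4, of which some are not reported here. Plots used matplotlib 3.10.9 in Python 3.11.15.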

Additional observations from a re-analysis of the deposited data

Results flagged for a closer look

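In 104 groups of libraries (52 genes in each fraction), 2 single libraries lay apart from the rest of their group by Dixon's test, which chance alone gives in about 1 of 20 groups. Both were Sca-1+ library 15, at log2 CPM of -2.19 for Slc35d3 (4 counts) and -2.44 for Cxcl5 (3 counts), where the other 3 libraries of the group had 0 counts, which is -3.63 with the prior count added. None of the 10 cargo genes had such a library.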

How the results depend on the processing

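Across 21 alternatives, 8 of the 10 cargo genes stayed past the threshold in every one, and none of the 10 changed direction. Srgn was past it in 20, and Serpine2 in 4 that include the endothelial scaling. Scaling to endothelial genes called 13325 genes (13016 lower and 309 higher in Sca-1+). Under it the counts of lower and higher genes were 33 and 0 for biogenesis, 29 and 0 for release, 25 and 3 for other cargo, 22 and 0 for serglycin chains and 19 and 2 for receptors, with 17 lower for the granule membrane. Library sizes alone gave 3 higher membrane genes. The endothelial scaling, which moved the median over all genes tested to -3.26, also turned Wdfy3 to -2.26, Nsmaf to -2.77, Prg4 to -1.32 and Ecm2 to -0.81. Voom gave 0.22 for Thbs2 and 1.65 for Prg2, and leaving out 1 library gave -1.18 to 0.05 and -2.6 to 0.36, turning sign without Sca-1- library 8. The cause of these changes was not tested.

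The labels give no shared replicate numbers. Consecutive end numbers taken as a replicate block in 6 libraries gave 4340 genes (2075 lower, 2265 higher), against 5360 in the same libraries without the block. With this block 0 biogenesis genes were higher, 11 release genes lower, and 2 serglycin chain genes lower and 4 higher, and Thbs2 and Prg2 had 0.40 and 0.67. Without the block the 6 libraries gave 1 higher biogenesis gene and 2 lower and 3 higher serglycin chain genes. Deviations of the numbered pairs correlated at 0.147, 0.148 and 0.042, and those of the other combinations across the fractions at -0.191 to 0.065. The values of 0.147 and 0.148 were the highest, so whether these libraries are pairs was not settled. The main fit had no block because the labels share no replicate numbers. A replicate block for libraries 15 and 16, whose titles share a number, gave 6847 genes. Leaving out 1 library at a time gave 5957 to 6969 genes (2859 to 3577 lower, 3098 to 3708 higher) and 9 to 10 cargo genes lower. Higher genes numbered 1 to 3 for biogenesis, 0 to 1 for plasma cargo and 5 to 8 for serglycin chains, whose lower genes numbered 2 to 5. Levels under 0.0996 to 0.209 CPM could not be told from 0.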

Other observations

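Plasma proteins that platelets carry but that the liver makes were mostly undetected. Of 14 such genes, 5 were tested, of which 3 were lower in Sca-1+, with a median log2 fold change of -3.50. F10, coagulation factor X, the enzyme that factor V assists, had 199 ± 63.9 CPM (SD, n = 5) in Sca-1- and 0.452 ± 0.494 CPM (SD, n = 4) in Sca-1+ (-8.79, SE 0.80, adjusted p = 3.7e-05 by edgeR), and -9.81 without Sca-1+ library 19. Apoh, beta-2-glycoprotein I, had 21.5 ± 10.4 and 0.401 ± 0.114 CPM (-5.73, SE 0.55, adjusted p = 4.7e-05), and its exons overlap the opposite-strand gene Prkca. Fga, Fgb, Alb, Hrg, Serpina1a and F11 had 0 counts in all libraries. Without Sca-1- library 14, or without Sca-1+ library 13, 1 gene of this list was called higher.

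Outside the chemokine cluster, the nearest tested genes beside the cargo genes did not share the size of their differences. Nradd, 336 bases from Nbeal2, had a log2 fold change of 1.80 (adjusted p = 0.0037), and Ccdc12 on the other side had -0.67 (adjusted p = 0.025). Tars2, 406 bases from Ecm1, had -0.49 (adjusted p = 0.29). Vps26a and Kif1bp, on either side of Srgn, had 0.14 and 0.19 (adjusted p = 0.47 and 0.42). Larger differences, opposite to those of the cargo genes, were found in Gulo and Fam124b, both at low levels. Gulo, 5238 bases from Clu, had 7.91 (adjusted p = 0.0029 by edgeR) from means of 1.21 CPM in Sca-1+ and 0.0 in Sca-1-. Fam124b, 337525 bases from Serpine2, had 3.65 (adjusted p = 0.035) from 2.75 and 0.223 CPM.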
